A study of Mus musculus with 42 samples.

Results

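Oxidative phosphorylation is carried out by complexes I to V of the inner mitochondrial membrane, and this report describes the RNA of their subunits in mouse liver on a control and a high-fat diet around the day. Members were the protein-coding rows of the count table whose symbols begin with Nduf, Uqcr, Cox4 to Cox8 or Atp5, or with mt-, or are Sdha, Sdhb, Sdhc or Sdhd, leaving out Cox7a1 and Cox8b. The rule took no measured value, and found 105 rows of the 54532 in the table, 92 of them nuclear and 13 mitochondrial. After a filter on low counts 100 members were tested, 87 nuclear and all 13 mitochondrial. Of these, Ndufa4l2 and Cox6a2 passed a mean of 25 counts over all libraries only through 10 libraries rich in adipocyte RNA, with means of 23.6 and 13.9 counts in liver and 68.7 and 186 counts there.

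Female C57BL/6 mice (C57BL/6NHsd per the study's methods) entered the study at 3 weeks of age and ate AIN93G, a purified control diet, or HFD, a high-fat diet made with soybean oil, freely for 3 weeks. Livers were taken at 7 zeitgeber times (ZT, hours after lights on) from ZT 0 to ZT 24, in a collection that the study's methods spread over 2 days. RNA of 3 of the mice killed for each diet and time was sequenced, which gave 42 libraries of poly(A) RNA. The mice were group-housed wild-type animals, and the labels treat each library as a separate mouse. Some library titles share a prefix across times within a diet (8 of 32 prefixes), and no source used here says what the prefix marks. All 42 libraries carry the label liver.

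Complex I passes electrons from NADH, and complex II from succinate, to ubiquinone. Complex III carries them on to cytochrome c, complex IV to oxygen, and complex V uses the proton gradient that results to make ATP. The core subunits of complexes I, III, IV and V that mitochondrial DNA encodes are made inside the organelle from RNA cut out of long shared transcripts, while the other subunits and all of complex II come from nuclear genes. Liver is rich in mitochondria, which there also serve fatty acid oxidation, the urea cycle and gluconeogenesis.

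The labelled tissue did not hold for every library. Albumin made up 66434 to 111995 CPM (counts scaled to 1000000 per library, for this gene by library size alone) in 32 libraries, which were taken as liver, and 18.7 to 81.0 CPM in the other 10, which are 3 of AIN93G ZT 16, 3 of AIN93G ZT 20, 2 of AIN93G ZT 24 and 2 of HFD ZT 24. Those 10 were called adipocyte-rich, because 12 adipocyte markers summed to 11062 to 19697 CPM in them and 26.7 to 108 CPM in liver, while 20 hepatocyte markers summed to 947 to 3845 and 153510 to 224700 CPM. Brown adipocyte markers (8 genes) summed to 86.9 to 1020 CPM in the adipocyte-rich and 71.1 to 296 CPM in the liver libraries. For 7 skeletal muscle markers the sums were 13.4 to 11819 and 2.43 to 2154 CPM, for 8 mammary epithelium markers 46.9 to 621 and 221 to 404 CPM, and for 8 lymphocyte markers 3.20 to 525 and 2.74 to 9.11 CPM. A sum does not show which genes carry it, so the overlapping sums are not read as brown fat or mammary RNA in liver. Ucp1, the brown fat protein, read 5.00 to 587 CPM in the adipocyte-rich libraries. Among the livers only AIN93G ZT 4 replicate 3 held more than 0.74 CPM of it. That liver also held the most Adipoq, an adipocyte gene, at 5.59 CPM. Clock genes went against the labelled times at ZT 24 and ZT 12. The 6 libraries of ZT 24, which names the same hour as ZT 0, read 0.508 to 3.05 CPM of Arntl, a core clock gene, and 60.4 to 174 CPM of the clock output gene Dbp. The ZT 0 livers held 43.8 to 51.2 and 0.282 to 0.941 CPM of them, and the ZT 8 livers 1.38 to 2.79 and 109.4 to 197 CPM. The ZT 12 libraries did not share a clock state. There Arntl read 47.4 and 51.6 CPM in AIN93G replicates 2 and 3 and 42.5 CPM in HFD replicate 3, near the ZT 0 levels, but 1.28, 1.98 and 1.04 CPM in AIN93G replicate 1 and HFD replicates 1 and 2. AIN93G replicate 2 and HFD replicate 3 of ZT 12 are labelled light phase and the other 4 dark phase. All libraries held 14592481 to 21368409 counts. In bulk RNA, fewer cells of a type and less RNA per cell cannot be told apart.

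Some mitochondrial members cannot be counted on their own, because a near copy of part of the mitochondrial genome lies on chromosome 1. Of the 13 members, 5 have an annotated copy over at least 90% of their length. The first 90 bases of mt-Nd3, a core complex I subunit (chrMT:9459-9548, plus strand), and of the pseudogene Gm28438 (chr1:24613030-24613119, minus strand; GRCm38, GENCODE vM21 transcripts) are printed to show how little there is to separate reads of the pair. Capitals mark the only base that differs over the 345 aligned bases, T3C, counted from 1 at the 5′ end of mt-Nd3 with the mitochondrial base first.
mt-Nd3: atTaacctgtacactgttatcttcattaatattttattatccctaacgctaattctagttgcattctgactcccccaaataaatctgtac
Gm28438: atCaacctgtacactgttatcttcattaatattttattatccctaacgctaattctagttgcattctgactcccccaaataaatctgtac

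Over the 42 libraries mt-Nd3 held a mean of 93.0 counts and Gm28438 a mean of 1014.8 (values of the same count table). The copies of the other 4 had no mismatch at all: Gm10222 along 294 bases of mt-Nd4l, Gm28661 along 681 bases of mt-Co2, Gm28437 along 783 bases of mt-Co3 and Gm10925 along 678 bases of mt-Atp6. Each of these pseudogenes also held a greater mean count than the member it copies, from 268.5 against 175.7 for mt-Nd4l to 1822.2 against 1235.0 for mt-Atp6. The levels of these 5 members are therefore uncertain, and together they held 0.397% to 0.915% of the mitochondrial member counts. The copies of mt-Nd4 (Gm28439, 876 of 1378 bases, 0 mismatches) and mt-Co1 (Gm29216, 492 of 1545 bases, 6 mismatches) are partial. Neighbouring mitochondrial genes also overlap, namely mt-Atp8 with mt-Atp6, mt-Atp6 with mt-Co3 (at base 8607), mt-Nd4l with mt-Nd4, and mt-Nd5 with mt-Nd6 on the other strand. No source used here says whether the strand was used in counting.

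A search of promoters asked what the nuclear members share in sequence. RefSeq promoters (GRCm38.p6, 250 bases before to 50 after each start) matched 74 of 91 nuclear symbols with 79 promoters. On either strand, the NRF1 string GCGCATGC stood in 15.2% of member promoters and 2.71% of all 32851 promoters, the YY1 string AAGATGGC in 13.9% and 2.75%, and the ETS (GABP) string CCGGAAGT in 6.33% and 3.89%. No hits of different strings overlapped. At least 1 of the strings was found for 27 of 74 member genes (36.5%) and for 9.91% of all genes. NRF1, YY1 and GABP are nuclear factors known for respiratory chain genes, and a match describes the letters, not binding. Cox6a1, the complex IV gene with the greatest nuclear level per length, is shown as an example of the NRF1 string, which is in capitals together with its overlapping reverse match 160 to 162 bases before the start (chr5:115349009-115349208, minus strand).
Cox6a1: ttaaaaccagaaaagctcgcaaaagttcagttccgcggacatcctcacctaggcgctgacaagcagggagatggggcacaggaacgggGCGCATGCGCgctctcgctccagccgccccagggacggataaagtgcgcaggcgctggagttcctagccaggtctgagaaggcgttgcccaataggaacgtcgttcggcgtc

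In the 32 liver libraries the 13 mitochondrial members summed to 43995 ± 5758 CPM (SD, n = 32) and the nuclear members to 13069 ± 1572 CPM, where CPM is scaled by edgeR's TMM factors. The ratio of the sums ran from 2.70 to 6.59 with a median of 3.20. As a share of the raw counts, the mitochondrial members took 3.10% to 5.41% and the nuclear members 0.821% to 1.34%. On AIN93G (n = 13) the sums were 44367 ± 2538 CPM mitochondrial and 13281 ± 1493 CPM nuclear, and on HFD (n = 19) 43740 ± 7255 and 12924 ± 1647 CPM. The mitochondrial sum was more spread on HFD, with 3 HFD libraries at the top of it. The sets differ in time, since only the HFD livers include ZT 16 and ZT 20, and 1 of the 3 is from ZT 20.

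**Figure D1:**
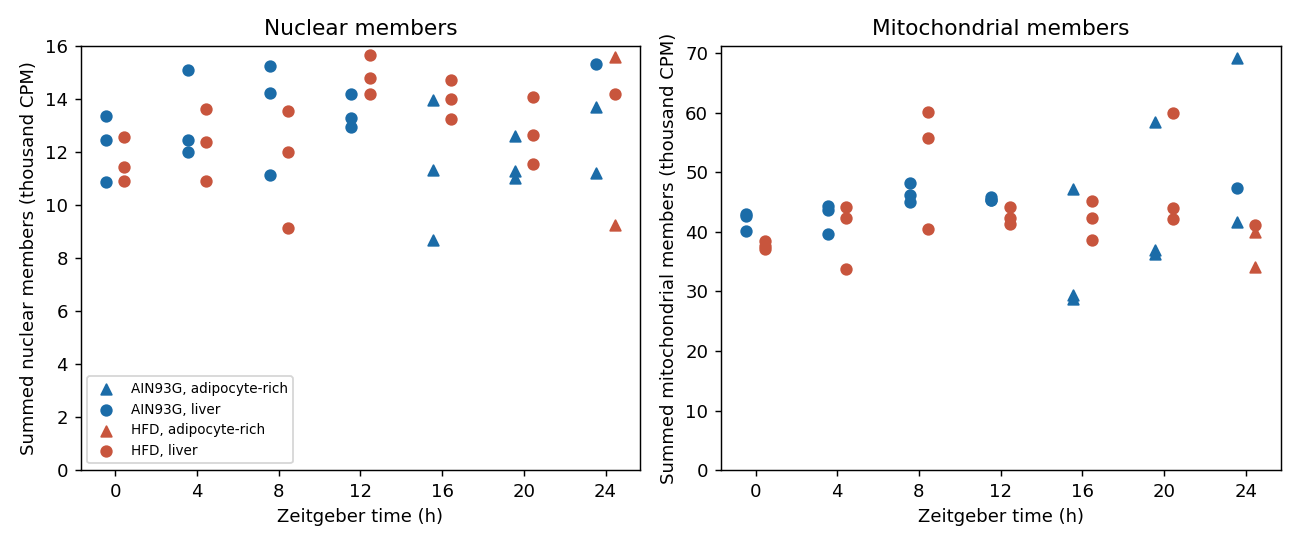
Summed CPM of the mitochondrial and the nuclear members (vertical axes) in each of the 42 libraries by zeitgeber time (horizontal axis, hours), with diet by colour and adipocyte-rich libraries drawn apart from liver libraries. Liver libraries hold 33750 to 60113 CPM of mitochondrial and 9125 to 15654 CPM of nuclear member RNA.

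A few transcripts made up most of the mitochondrial sum. mt-Co1, the catalytic core of complex IV, averaged 18184 ± 2344 CPM in liver and held 38.1% to 45.6% of the mitochondrial member counts. mt-Cytb, the cytochrome b of complex III, averaged 8701 ± 1290 CPM. Among the complex I core subunits, mt-Nd2 averaged 4510 ± 760 CPM, mt-Nd4 3959 ± 573, mt-Nd1 3860 ± 631, mt-Nd5 3512 ± 707 and mt-Nd6, the only member read from the other strand, 1040 ± 206 CPM. The rest were lower by more than a factor of 10: mt-Atp6 77.5 ± 23.2 and mt-Atp8 3.67 ± 0.888 CPM of complex V, mt-Co3 73.7 ± 21.1 and mt-Co2 59.7 ± 9.72 CPM of complex IV, and mt-Nd4l 9.75 ± 4.38 and mt-Nd3 5.29 ± 1.78 CPM of complex I. Apart from mt-Atp8, which overlaps mt-Atp6, these low ones are the members with a full-length chromosome 1 copy.

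Per kilobase of exon, and over the members that passed the filter (12 of 16 in complex IV, 17 of 18 in complex V and all in the other groups), the median nuclear level in liver was 159 CPM per kb for complex III, 124 for complex II, 116 for complex IV, 61.6 for complex V, 52.6 for complex I and 8.87 for the Ndufaf genes, whose products assemble complex I and are not part of it. The greatest nuclear level was that of Cox6a1 at 399 CPM per kb, followed within complex V by Atp5a1, the alpha subunit of the catalytic head, at 356. Uqcrfs1, the Rieske iron-sulphur protein of complex III, stood at 194, the complex II membrane anchor Sdhd at 186, and Ndufa4 at 162 CPM per kb. Ndufa4 and Ndufa4l2 are counted with complex I throughout because members were grouped by symbol, although the NDUFA4 protein is known as a subunit of complex IV. Within complex III the levels lay within a factor of 2.66 of each other, down to 73.0 CPM per kb for Uqcrc1, and within complex II within 3.63, down to 51.3 for Sdhc. Among the complex V members that passed, the lowest was Atp5s at 3.29 CPM per kb. Across the 32 livers the coefficient of variation of single members had a median of 17.6% for nuclear and 19.8% for mitochondrial members.

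In the Cox4i, Cox6a, Cox6b, Cox7b and Cox8 pairs of complex IV members the widely expressed form was the higher. Cox7a1 and Cox8b, left out by the rule, were not compared. Cox4i1 averaged 416 CPM in liver and Cox4i2, known from lung, 0.131 CPM. Cox6a1 averaged 280 CPM against 0.906 CPM (median 0.105) for Cox6a2, the heart and muscle form, and Cox6b1 155 CPM against 0.325 CPM for Cox6b2, the testis form. Cox7b averaged 142 and Cox8a 154 CPM, while Cox7b2 and Cox8c held 0 counts in all 42 libraries. Cox7a2 and Cox7a2l, a factor in supercomplex assembly, averaged 108 and 104 CPM. Ndufa4 averaged 224 CPM and Ndufa4l2 1.60 CPM. The identical c subunit of complex V is encoded by Atp5g1, Atp5g2 and Atp5g3, which averaged 172, 50.6 and 290 CPM. The 5 members below the filter were Cox4i2 (443 counts in 42 libraries), Cox6b2 (478 counts), Cox7b2, Cox8c and a second Atp5o entry with 0 counts.

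The first comparison asked whether HFD changed respiratory chain RNA in liver between ZT 0 and ZT 12, where each diet had 12 liver libraries. No member passed the test. By edgeR's quasi-likelihood test with Benjamini-Hochberg adjustment 0 of 100 members were called at an adjusted p under 0.05, beside 0.134% of all 13394 genes tested (0.0672% higher and 0.0672% lower), and DESeq2 also called 0 members. At an unadjusted p under 0.05 there were 2 members, beside 7.83% of all genes. The median log2 difference, HFD minus AIN93G, was −0.07 over the nuclear and −0.05 over the mitochondrial members, and −0.005 over all genes. In simulated data of the same size, 53.0% of genes changed by 0.5 on the log2 scale and 82.1% of those changed by 1 were recovered. A change of either size could therefore have been missed. The simulation varied each gene on its own, so shifts shared by members within a library were not part of it.

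The members with the smallest p also missed the threshold. Cox6a2 read 24.5 CPM in AIN93G ZT 8 replicate 2, and its log2 difference of −2.89 ± 1.103 (SE, adjusted p = 0.470) rested on that library. Ndufaf6, a complex I assembly factor, differed by 0.18 ± 0.08 (adjusted p = 0.598), Sdhd by −0.18 (adjusted p = 0.654) and Atp5s, a factor B like protein of complex V, by 0.24 (adjusted p = 0.668), all by edgeR.

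At single times, 3 livers for each diet, edgeR called 0 members at ZT 0 (0.105% of all genes, with 0.0448% higher and 0.0597% lower), and 0 members and 0% of all genes at ZT 4, ZT 8 and ZT 12 and in the test of diet by time. DESeq2 likewise called 0 members in each. In simulated data of the size of the ZT 0 comparison, 7.58% of genes changed by 0.5 and 73.1% of those changed by 1 on the log2 scale were recovered. At an unadjusted p under 0.05 the members numbered 2 at ZT 0 (7.62% of all genes), 1 at ZT 4 (3.45%), 2 at ZT 8 (6.79%), 6 at ZT 12 (4.13%) and 2 for the interaction (5.35%). At ZT 8 the nuclear members leaned low on HFD, with 81 of 87 below 0 and a median log2 difference of −0.29, while the mitochondrial median was 0.07. This lean rested in part on HFD replicate 3, without which the nuclear median was −0.11. At ZT 12 the lean was the other way, with 81 of 87 nuclear members above 0 and a median of 0.17, but there 2 of 3 AIN93G and 1 of 3 HFD libraries were in the clock state of high Arntl, whose part in the lean was not tested. These medians are descriptions, since no member passed.

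Nuclear members moved together with genes under 1000 bases from library to library, although only 20 of the 87 tested are themselves that short. Over the 32 livers, the median deviation of the nuclear members from their liver mean followed that of 408 genes under 1000 bases that are not members (Pearson r = 0.971, Spearman rho = 0.955, and r = 0.949 without the 2 most distant libraries), and that of 77 ribosomal protein genes (r = 0.902). The points share their library preparation and depth, and the median exon length was 1701 bases for nuclear members and 4307 for all genes tested. HFD ZT 8 replicate 3 stood lowest, at −0.69 on the log2 scale for the nuclear members and −0.425 for the genes under 1000 bases, but at 0.37 for the mitochondrial members. In a fit with the length trend removed from each library the ZT 8 nuclear median of HFD minus AIN93G was −0.17. The nuclear and mitochondrial deviations showed little relation (r = −0.075, rho = 0.292, and r = 0.168 without the 2 most distant libraries), and HFD ZT 20 replicate 1 and HFD ZT 8 replicate 1 were high only in the mitochondrial members, at 0.49 and 0.34.

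**Figure D2:**
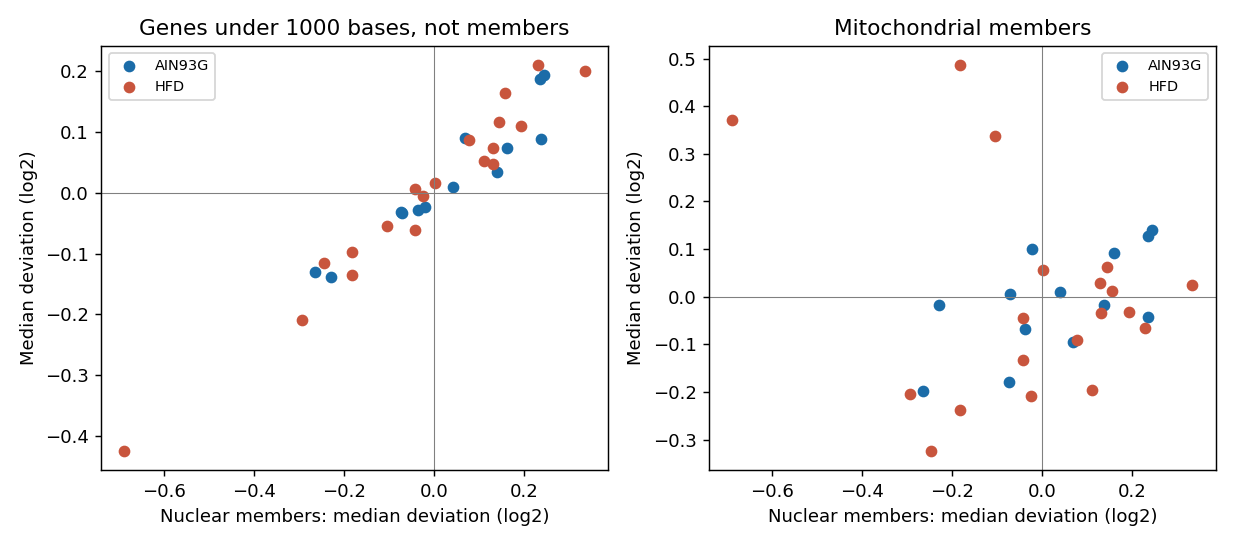
Median log2 deviation from the liver mean of the nuclear members (horizontal axes) against that of genes under 1000 bases that are not members (left) and of the mitochondrial members (right), 1 point for each of the 32 liver libraries, coloured by diet. Points on the left follow a line (r = 0.971), while on the right 3 HFD libraries lie above 0.3 apart from the rest.

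The second comparison asked how members differed between ZT 0, 4, 8 and 12 in liver, with diet as a covariate (24 libraries). Of the 13 mitochondrial members, 5 were higher at ZT 8 than at ZT 0 by the test, and 0 of them were called in either diet alone. All 13 mitochondrial members lay above 0, with a median log2 difference of 0.325, against 0.075 over the nuclear members and 0.005 over all genes. With 3 of 87 nuclear members, edgeR called 8 members, all higher at ZT 8. Of all genes 9.3% were called, 4.69% higher and 4.61% lower, so that the nuclear share lay under the background. Without adjustment, 17 members and 23.4% of all genes had a p under 0.05. The summed mitochondrial level was 40101 to 43008 CPM at ZT 0 and 45046 to 48254 CPM at ZT 8 on AIN93G, and 37127 to 38463 against 40481, 55769 and 60113 CPM on HFD, with no overlap within a diet. Among the 8 members, the 5 mitochondrial ones belong to complexes I and III.

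mt-Nd6 (ENSMUSG00000064368, chrMT:13552-14070, minus strand), a complex I core subunit, led the members. The libraries are poly(A) RNA and the strand setting is not given, so its counts may hold RNA of the opposite strand. The level of mt-Nd6 was 969, 869 and 1024 CPM in the AIN93G livers of ZT 0 and 1134, 1232 and 1252 CPM in those of ZT 8. On HFD it was 735, 855 and 838 CPM at ZT 0 and 1428, 911 and 1662 CPM at ZT 8. The times did not overlap within either diet, and the log2 difference was 0.53 ± 0.12 (SE, edgeR adjusted p = 0.00825). mt-Nd2 (ENSMUSG00000064345), also of complex I, read 3881, 3451 and 3817 CPM at ZT 0 and 4399, 5231 and 4618 CPM at ZT 8 on AIN93G. On HFD it read 3753, 4450 and 3843 CPM and then 6547, 4423 and 6272 CPM, so that 1 ZT 8 liver lay within the ZT 0 range. Its log2 difference was 0.44 ± 0.11 (edgeR adjusted p = 0.0106). Both calls were kept when any 1 of the 24 libraries was left out. In either diet alone neither was called, with log2 differences of 0.33 on AIN93G and 0.73 on HFD for mt-Nd6, and of 0.35 and 0.53 for mt-Nd2. Without HFD ZT 8 replicates 1 and 3, left out because their mitochondrial level was high, 1 HFD liver of ZT 8 remained and was assumed to vary like the others. In that fit mt-Nd6 differed by 0.34 (edgeR adjusted p = 0.0830) and mt-Nd2 by 0.29 (adjusted p = 0.106), and 0 mitochondrial members were called.

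The other mitochondrial calls were nearer the threshold. mt-Nd1 rose by 0.40 ± 0.12 (edgeR adjusted p = 0.0382), mt-Cytb by 0.32 ± 0.10 (adjusted p = 0.0429) and mt-Nd4l by 0.83 ± 0.24 (adjusted p = 0.0318). mt-Cytb ranged from 7516 to 8567 CPM at ZT 0 and from 8603 to 9156 CPM at ZT 8 on AIN93G, and from 6930 to 7534 against 8192 to 11797 CPM on HFD. For mt-Nd4l, AIN93G ZT 8 replicate 1 held 27.99 CPM against 5.83 to 13.8 CPM in the other 11 livers of ZT 0 and ZT 8, and without it the log2 difference was 0.51 (edgeR adjusted p = 0.129). The calls of mt-Nd1, mt-Cytb and mt-Nd4l were kept in 15, 14 and 17 of 24 fits that each left out 1 library, and under 6, 6 and 5 of 11 other settings, over which mt-Cytb ran from 0.117 to 0.52. Not called were mt-Atp6 (0.43), mt-Nd3 (0.38), mt-Co2 (0.32), mt-Nd5 (0.30), mt-Nd4 (0.29), mt-Co1 (0.26), mt-Co3 (0.26) and mt-Atp8 (0.16 on the log2 scale).

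Of the nuclear members, Ndufaf6 (ENSMUSG00000050323, chr4:11051045-11076205, minus strand) rose by 0.40 ± 0.11 (edgeR adjusted p = 0.0263). It read 14.1 to 16.2 CPM at ZT 0 and 16.1, 17.4 and 18.8 CPM at ZT 8 on AIN93G, and 13.01 to 16.0 against 26.5, 22.04 and 19.9 CPM on HFD, so that the times overlapped on AIN93G and not on HFD. Uqcrc1 (ENSMUSG00000025651, chr9:108936633-108949623, plus strand), a core protein of complex III, rose by 0.32 ± 0.09 (adjusted p = 0.0307). Its range was 243 to 276 CPM over the 6 ZT 0 livers and 275 to 372 CPM over the 6 ZT 8 livers. The call of Ndufaf6 was kept in 20 of 24 fits that left out 1 library and under 6 of 11 other settings, and that of Uqcrc1 in 17 of 24 and 6 of 11. Sdhb, the iron-sulphur subunit of complex II, differed by 0.35 and missed the threshold (adjusted p = 0.0577).

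The call of Cox6a2 rested on a single library. AIN93G ZT 8 replicate 2 held 24.5 CPM and the other 11 livers of ZT 0 and ZT 8 at most 0.262 CPM, and without it edgeR gave an adjusted p of 0.439. In the same library Ckm, the muscle creatine kinase, read 175 CPM, and all 7 skeletal muscle markers were called higher at ZT 8. The part of muscle RNA in this result was not tested.

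**Figure D3:**
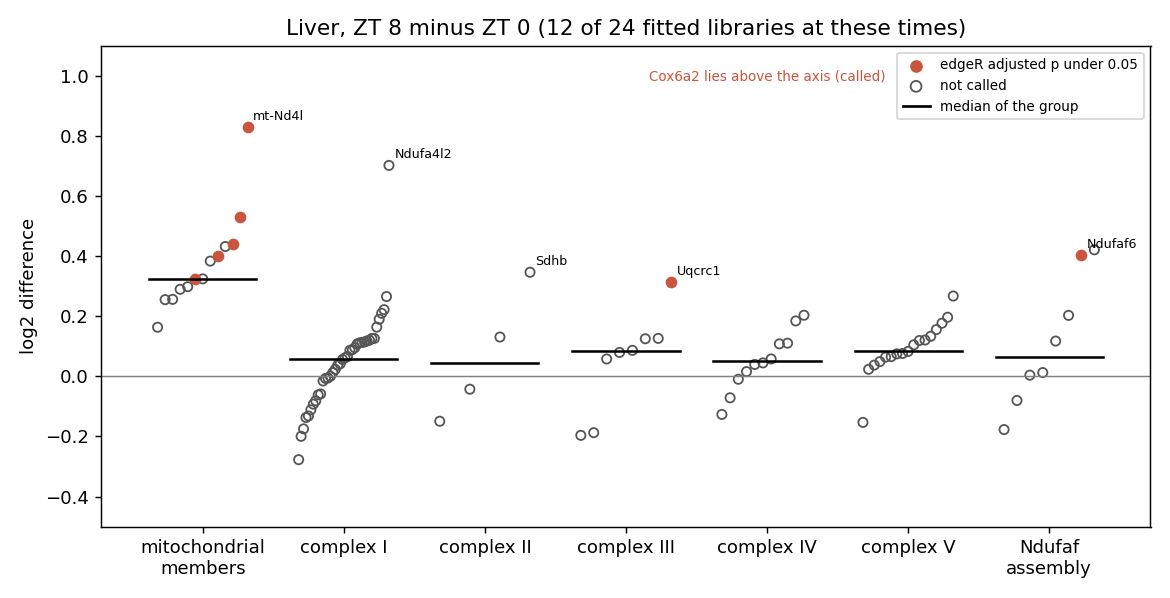
Log2 difference between ZT 8 and ZT 0 in liver (vertical axis, 24 libraries in the edgeR fit) for each tested member, by genome and complex, with members called at an adjusted p under 0.05 filled. All 13 mitochondrial members lie above 0, with a median of 0.33, and Cox6a2 lies above the axis at a fitted 5.75, which depends on the prior count.

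In the test across all 4 times edgeR called mt-Nd6 (adjusted p = 0.0294) and mt-Nd2 (adjusted p = 0.0483), beside 6.32% of all genes. It also called Cox6a2 (adjusted p = 0.0248), which rests on the library named above and on a filter it passed only through the adipocyte-rich libraries, so that this call is not read as a change over time. At an unadjusted p under 0.05 there were 18 members, against 22.4% of all genes. The ZT 12 libraries of mixed clock state were part of this fit.

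Genes around the respiratory chain were read from lists, whose counts stand beside 9.3% of all genes called between ZT 8 and ZT 0 and 4.69% called higher. Among 31 tested assembly factors of complexes II to V, 2 rose at ZT 8 by edgeR, Ttc19 of complex III by 0.50 (adjusted p = 0.00868) and Cmc1 of complex IV by 0.47 (adjusted p = 0.0364). Of 22 genes for mitochondrial DNA copying and transcription 3 rose, among them Supv3l1, an RNA helicase of the degradosome, by 0.38 (adjusted p = 0.0137) and Mterf2 by 1.055 (adjusted p = 0.0200). Of 10 nuclear regulators 1 rose, the coactivator Ppargc1a by 0.83 (adjusted p = 0.0455), and of 13 citric acid cycle genes 2, fumarase Fh1 by 0.40 (adjusted p = 0.00915) and Suclg1 by 0.31 (adjusted p = 0.0403). None of these lists held a gene that fell. With library size alone the counts of these 4 lists were 1, 3, 0 and 1 higher, beside 3.63% of all genes. No call was made among 7 further complex I assembly factors or among 6 genes for cytochrome c, the ATPase inhibitor and carriers. There the carrier Slc25a4 differed by 1.87 (edgeR adjusted p = 0.0552). The ZT 8 livers include AIN93G replicate 2, with 175 CPM of Ckm, and the part of muscle RNA in this difference was not tested. For diet over ZT 0 to ZT 12, edgeR called 0 genes in every one of these lists.

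HFD was the only diet with replicated liver libraries at ZT 16 and ZT 20, so the next comparison followed the 18 HFD livers from ZT 0 to ZT 20. In the test over all 6 times edgeR called 0 members, beside 2.29% of all genes, but 23 of 89 nuclear and 2 of 13 mitochondrial members without the filter on low counts (8.16% of all genes in that fit). DESeq2 called 7 of 100 members and 11.7% of all genes. Without adjustment, 15 members had a p under 0.05, as had 20.1% of all genes. Between the dark libraries of ZT 16 and ZT 20 and the light libraries of ZT 4 and ZT 8, 1 member was called, beside 4.99% of all genes (2.3% higher, 2.69% lower). Dark and light stand for those times in what follows, although HFD ZT 12 replicates 1 and 2 are also labelled dark phase. At an unadjusted p under 0.05 there were 6 members and 19.6% of all genes.

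The member was Atp5s (ENSMUSG00000054894, chr12:69724950-69744660, plus strand, RefSeq symbol Dmac2l), which was lower at ZT 16 and ZT 20 than at ZT 4 and ZT 8. Its level on HFD was 9.29, 9.02 and 7.64 CPM at ZT 4 and 5.37, 10.8 and 7.99 CPM at ZT 8. At ZT 16 it was 3.73, 3.83 and 2.52 CPM, and at ZT 20 it was 3.87, 2.55 and 6.03 CPM. The mean was 3.75 ± 1.28 CPM in the dark against 8.36 ± 1.84 CPM in the light (SD, n = 6 each), and the groups overlapped only through ZT 20 replicate 3 and ZT 8 replicate 1. The log2 difference was −1.17 ± 0.23 (SE, edgeR adjusted p = 0.00711). It was called under all 9 other settings, at −1.36 to −1.16, and in all 18 fits that left out 1 library, at −1.36 to −1.04. In the test over all 6 times Atp5s was not called (edgeR adjusted p = 0.0621). The HFD livers of ZT 0 and ZT 12 held 5.38 to 10.2 CPM, and the 13 AIN93G livers, none of which is from ZT 16 or ZT 20, held 4.96 to 8.58 CPM.

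**Figure D4:**
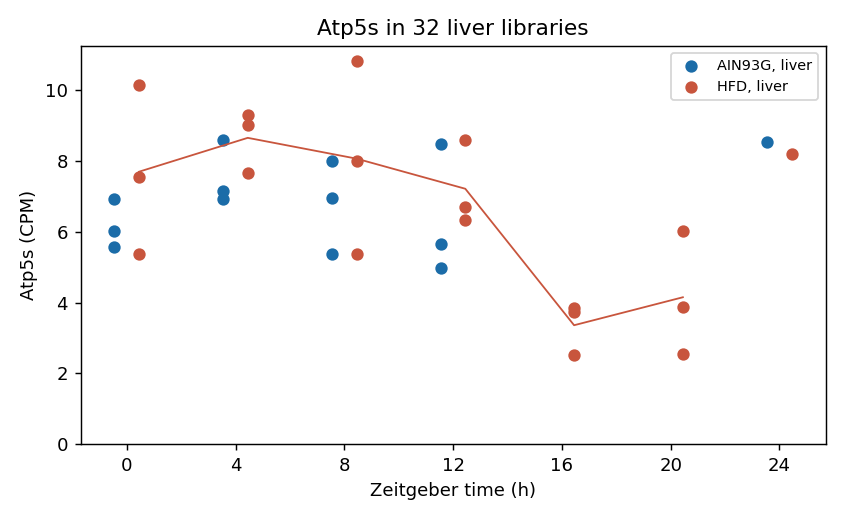
CPM of Atp5s (vertical axis) in each of the 32 liver libraries by zeitgeber time (horizontal axis, hours), with diet by colour and a line through the HFD means. The HFD livers of ZT 16 and ZT 20 hold 2.52 to 6.03 CPM and those of ZT 4 and ZT 8 hold 5.37 to 10.8 CPM.

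The other nuclear members leaned slightly high in the dark without passing the test. Of 87, 78 lay above 0, with a median of 0.18 over all nuclear members, 0.18 for complex I, 0.23 for complex IV and −0.13 for the Ndufaf assembly factors, while the mitochondrial median was −0.02. The nuclear median was 0.09 without HFD ZT 8 replicate 3. Next to Atp5s stood Cox5a, a complex IV subunit that read 85.9 ± 10.2 CPM in the dark and 69.3 ± 13.2 CPM in the light (log2 difference 0.30, edgeR adjusted p = 0.142), and Ndufaf4 at 0.38 (adjusted p = 0.200). In the lists, cytochrome c (Cycs), which carries electrons from complex III to IV, was higher in the dark by 0.49 (adjusted p = 0.0211), and Mterf2 and the nuclear receptor Esrrg were lower (−2.002, adjusted p = 0.00445, and −1.33, adjusted p = 0.0197). No other gene of the 6 lists was called there.

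The last comparison set the 8 adipocyte-rich AIN93G libraries against the 13 AIN93G livers. Time and tissue cannot be told apart in it except among the libraries labelled ZT 24, whose clock genes go against that label in both tissue classes. The libraries were separated by Alb, and 75.8% of all genes were called by edgeR (39.5% higher, 36.3% lower, and 77.1% at an unadjusted p under 0.05). Among nuclear members 47 of 87 were called, 13 higher and 34 lower in the adipocyte-rich libraries (12 and 34 of 85 without Ndufa4l2 and Cox6a2), and 0 of 13 mitochondrial members. With library size alone, without TMM, 67 nuclear members were higher and 2 lower, and all 13 mitochondrial members were called, beside 85.7% of all genes (67.3% higher, 18.4% lower). The counts by complex and list under that scaling stand beside the same shares. Members with an unadjusted p under 0.05 numbered 49. The median log2 difference was −0.15 over the nuclear and 0.01 over the mitochondrial members, against 0.04 over all genes. These values depended on the scaling: under that scaling the median over all genes moved to 0.70, and the nuclear and mitochondrial medians to 0.51 and 0.65, so that both lay below it.

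Among the called members Atp5g1 differed most. Atp5g1 (ENSMUSG00000006057, chr11:96068852-96075670, minus strand), a gene for the c subunit whose ring turns in the membrane, averaged 27.1 ± 13.2 CPM in the adipocyte-rich libraries (n = 8; lowest 9.65, highest 52.3) and 181 ± 27.1 CPM in AIN93G liver (n = 13; lowest 137, median 187, highest 223). The groups were far apart, and the log2 difference was −2.73 ± 0.23 (edgeR adjusted p = 1.69e-10). Atp5g3 and Atp5g2, which encode the same mature protein, fell less, by 0.77 and 0.33 on the log2 scale. Atp5g1 thus took a lesser place among the 3 genes, at 27.1, 42.8 and 172 CPM for Atp5g1, Atp5g2 and Atp5g3. Atp5j, coupling factor 6 of the stalk, fell by 0.89 on the log2 scale. Of 17 complex V members 9 were lower and 0 higher, beside 36.3% and 39.5% of all genes, but with library size alone 1 was lower and 11 were higher.

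In complex I, 9 of 38 members were higher and 12 lower, which became 32 and 0 with library size alone. Ndufb3 and Ndufab1, the mitochondrial acyl carrier protein, were higher by 0.84 and 0.43 on the log2 scale. Ndufa4l2 differed by 0.65, a call kept in 7 of 21 fits that left out 1 library, of a member that passed the filter only through the adipocyte-rich libraries. Ndufa6, Ndufs6 and Ndufa4 fell by 0.87, 0.74 and 0.43. Without Ndufa4 and Ndufa4l2, 8 of 36 complex I members were higher and 11 lower. In complex II Sdhd and Sdhc, both membrane anchors, fell by 0.65 and 0.36, and 3 of 4 members were lower, against 0 lower and 3 higher with library size alone. In complex III Uqcrq and Uqcrfs1 fell by 0.86 and 0.36, the only 2 of 8 called, while library size alone gave 0 lower and 7 higher. In complex IV Cox5a, Cox7b and Cox7a2l fell by 0.53, 0.37 and 0.22, while Cox8a was higher by 0.40, and the other 8 of 12 were not called. The call of Cox7a2l was kept in 11 of 21 fits that left out 1 library and under 3 of 9 other settings. With library size alone 10 of the 12 were higher and 0 lower. Without TMM the differences of Sdhd, Sdhc, Uqcrfs1, Ndufa4, Cox5a, Cox7b, Cox7a2l and Atp5g2 changed sign.

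All 8 assembly factors were called, 3 higher and 5 lower, and with library size alone 4 were higher and 1 lower. Ndufaf6 averaged 6.67 CPM against 17.2 CPM, ranging from 5.16 to 8.99 CPM in the adipocyte-rich libraries and from 13.7 to 21.03 CPM in liver, a log2 difference of −1.36 ± 0.10 (edgeR adjusted p = 4.72e-11). Ndufaf5 went the other way, with 7.42 to 13.1 CPM against 3.84 to 6.58 CPM in liver (0.73). Ndufaf7 was higher by 0.49, and Ndufaf4 and Ndufaf1 fell by 0.60 and 0.57, the last 2 changing sign without TMM. Apart from Ndufa4l2 and Cox7a2l, the calls of all members named here were kept in all 21 fits that left out 1 library. Of the named members, Atp5g1 and Ndufaf6 alone kept their call under all 9 other settings. Without TMM they differed by −2.05 and −0.70.

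**Figure D5:**
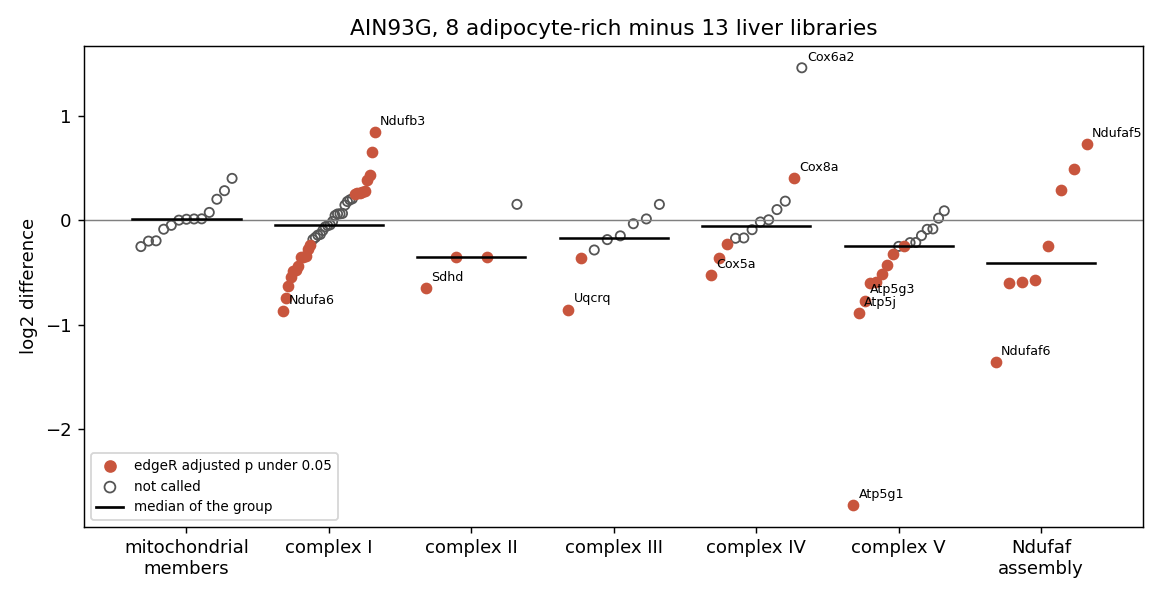
Log2 difference of each tested member (vertical axis) between 8 adipocyte-rich and 13 liver libraries on AIN93G, by genome and complex, with members called by edgeR filled and the median of each group as a line. Atp5g1 at −2.73 and Ndufaf6 at −1.36 lie lowest, and no mitochondrial member is filled.

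The isoforms tied to muscle were also present in single adipocyte-rich libraries. Cox6a2 averaged 5.61 CPM (median 0.700) in the 8 AIN93G ones, and its log2 difference of 1.46 was not called (edgeR adjusted p = 0.300). It read 13.9, 27.9 and 32.9 CPM in the libraries in which Ckm read 284, 837 and 984 CPM. The last of these is HFD ZT 24 replicate 2, which is in neither that mean nor that test. All 10 adipocyte-rich libraries held 0.106 to 984 CPM of Ckm and 5.00 to 587 CPM of the brown fat protein Ucp1. The counts of the lists stand beside 75.8% of all genes called, 39.5% higher and 36.3% lower. Of 22 genes for mitochondrial DNA copying and transcription 15 were lower and 1 higher in the adipocyte-rich libraries, among them Tfam at −1.17 and Twnk, the mitochondrial helicase, at −1.103. Of 13 citric acid cycle genes 8 were higher and 3 lower, with Idh3a, a subunit of isocitrate dehydrogenase, at 2.46 and Suclg2 at −2.09. Of 6 carrier and cytochrome c genes 2 were higher and 3 lower, with the nucleotide carriers Slc25a4 at 3.30 and Slc25a5 at −0.93. Of 10 regulators 2 were higher and 4 lower (Gabpa −0.74, Yy1 −0.59), of 31 assembly factors of complexes II to V 8 and 8 (Atpaf2 1.12, Cox19 0.85), and of 7 further complex I assembly factors 0 and 3 (Timmdc1 −0.75, Ecsit −0.35). With library size alone these lists, in the same order, held 10, 10, 4, 7, 26 and 6 higher and 5, 1, 1, 0, 1 and 0 lower genes, so that these counts depended on the scaling.

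Within the adipocyte-rich libraries, edgeR called 0 members between ZT 20 and ZT 16 on AIN93G (3 against 3 libraries; 0% of all genes called; 3 members and 10.1% of all genes at an unadjusted p under 0.05; DESeq2 called 1 member and 1.22% of all genes). Between the diets at ZT 24 it also called 0 members and 0% of all genes (2 against 2 libraries), with 0 members and 6.7% of all genes at an unadjusted p under 0.05, and DESeq2 called 0.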

How the data were processed

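RNA of frozen liver was poly(A) selected and sequenced as paired ends. The deposited table holds raw read counts per gene made by the authors; fastp, STAR, HTSeq 0.6.1 and mm10 are named in the submitters' processing notes, and the strand setting is not given in the sources used here. No other per-sample column was left out (0). Members and lists were chosen with earlier results of these data known. Liver libraries were those with Alb over 10000 CPM.

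Genes with a mean of at least 25 counts over the 42 libraries (13394 genes) were tested with edgeR 4.0.16 in R 4.3.3 (quasi-likelihood, TMM), with Benjamini-Hochberg adjustment over all genes and a threshold of 0.05. A value ± in a log2 difference is its SE, and p-values measure the spread between mice as labelled. Time fits had diet as a term. Displayed CPM are TMM scaled, except those of Alb (library size alone). Named were all 13 mitochondrial members, all called nuclear members up to 10 in a comparison (otherwise, per complex and direction, the 2 with the smallest p and the 2 with the largest fold), and the isoform sets; Sdhb, Ndufaf4, Cox5a and the diet leaders were named after their values were seen.

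The fit was tested on simulated counts of 13394 genes. Depth was 14592481 to 21368409 counts per library. Alternatives were DESeq2 1.42.0, library size alone, no filter, at least 25 counts in every library, mitochondrial rows left out of library sizes, all times in 1 fit, no ZT 12, ZT 24 alone, and each library left out. Alternatives chosen after seeing the data were a length trend removed per library, each diet alone, the fit without 3 HFD libraries of high mitochondrial level (2 of which are in the fits up to ZT 12), and limma 3.58.1 voom with and without the prefix of the library title as a replicate block. Promoter strings were shortened to 8 letters after a first search.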

Additional observations from a re-analysis of the deposited data

Results flagged for a closer look

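Among the 8 adipocyte-rich AIN93G libraries, 102 quantities were tested for a library far from the rest, and 6 had one. Chance gives about 1 in 20, so this number is near the chance share, and the values are listed only as descriptions. These libraries come from ZT 16, ZT 20 and ZT 24 and range from 0.106 to 837 CPM of Ckm. In ZT 24 replicate 1, mt-Nd4 was high at 6659 CPM (next 4325), and Ndufaf8, a complex I assembly factor, was low at 9.348 CPM (next 11.99). In ZT 16 replicate 1, mt-Co3 was high at 163.3 CPM (next 83.33) and Ndufb2, a complex I subunit, was high at 13.35 CPM (next 6.767). Ndufb8, also of complex I, was low at 79.96 CPM in ZT 16 replicate 2 (next 109.1). Ndufaf5 was high at 13.11 CPM in ZT 24 replicate 2 (next 9.578).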

How the results depend on the processing

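The depth limits what low members can show: over the 42 libraries Atp5s averaged 112 counts, mt-Nd3 93.0 and mt-Nd4l 176. Of the counts of called members, 188 alternatives stayed within 1.5 times and 39 did not, and 344 of 395 values with 1 library left out did. The cause was not tested for any of the changes below. The replicate numbers were given in accession order and pair nothing. For the titles that share a prefix, the deviations from the group means of same-prefix pairs of libraries correlated at −0.55 to 0.21 (10 pairs, 2 of them over 0.1), so the prefix was not taken as a pairing. With limma voom and the prefix as a replicate block, chosen after seeing the data, time over ZT 0 to ZT 12 called 0 nuclear and 1 mitochondrial members, ZT 8 against ZT 0 called 2 and 4, and dark against light called Atp5s alone (estimated correlation within a prefix −0.045, −0.045 and 0.236). Without the block limma voom gave the same member counts for these comparisons. Between ZT 20 and ZT 16 the correlation within a prefix could not be estimated.

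For time over ZT 0 to ZT 12, nuclear members called (1) became 4 with DESeq2, 0 with at least 25 counts in every library, 3 with the length trend removed, 2 without ZT 12 and 2 without HFD ZT 8 replicates 1 and 3, and mitochondrial members (2) became 4 with DESeq2, 1 with library size alone and 0 without those 2 libraries. For ZT 8 against ZT 0, nuclear members (3) became 1 with library size alone, without a filter and without those 2 libraries, and 0 in either diet alone, and mitochondrial members (5) became 2 with library size alone, 3 without a filter, and 0 in either diet alone and without those 2 libraries. Over the HFD times, the 0 nuclear members became 6 with DESeq2, 23 without a filter and 2 without ZT 12, and the 0 mitochondrial members 1 with DESeq2 and 2 without a filter. Dark against light gave 2 nuclear members without a filter instead of 1. Without a filter, diet called 1 mitochondrial member at ZT 4 and 1 nuclear member at ZT 8. The share of all genes called in those diet fits is not given here, so these calls are not read as diet results. DESeq2 called 1 nuclear member between ZT 20 and ZT 16, beside 1.22% of all genes.

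Between adipocyte-rich and liver libraries, nuclear members higher (13) became 67 and lower (34) became 2 with library size alone, where all 13 mitochondrial members were called. Higher members numbered 8 without a filter, 21 with the length trend removed and 0 at ZT 24 alone, where 3 were lower, and 1 mitochondrial member was called with at least 25 counts in every library. With library size alone the log2 difference was above 0 for Uqcrfs1 (0.311), Ndufa4 (0.235), Sdhd (0.015), Sdhc (0.306), Cox7b (0.305), Cox7a2l (0.458), Cox5a (0.15), Atp5g2 (0.342), Ndufaf4 (0.066) and Ndufaf1 (0.082).

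With 1 library left out at a time, members called for ZT 8 against ZT 0 ran from 0 to 5 (nuclear) and 2 to 6 (mitochondrial), for time over ZT 0 to ZT 12 from 0 to 2 and 0 to 3, over the HFD times from 0 to 2 and 0 to 1, and for dark against light from 1 to 3 nuclear. Between adipocyte-rich and liver libraries the range was 7 to 15 higher, 31 to 35 lower and 0 to 2 mitochondrial. Every diet comparison and the test of diet by time stayed at 0 members, as did those within the adipocyte-rich libraries.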

Other observations

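The mitochondrial 16S ribosomal RNA mt-Rnr2, which is not a member and is only partly kept by poly(A) selection, read 7.20 CPM in HFD ZT 0 replicate 1, against 344.5 to 1341 CPM in the other 31 liver libraries. The mitochondrial members of the same library summed to a value within the range of the other HFD ZT 0 livers.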
